A study of Homo sapiens with 18 samples.

Results

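Cholesterol is made from acetyl-CoA by a chain of enzymes that first build squalene and then turn it into sterols. The genes of this chain, and many of those for fatty acid synthesis, are switched on together by the SREBP transcription factors, which are encoded by SREBF1 and SREBF2. The SREBP precursors sit in the endoplasmic reticulum with their escort SCAP. INSIG1 and INSIG2 hold SCAP there when sterols are plentiful, and low sterol lets SCAP carry the precursors to the Golgi, where they are cut free. A set of 30 genes of this system was taken by symbol from both count tables of the series, which hold 57120 gene symbols (TruSeq) and 44267 (PLATE-seq). Of the 30, 8 act from acetyl-CoA to squalene, 10 from squalene to cholesterol, 6 control SREBP or move sterol, and 6 make or desaturate fatty acids.

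The study sequenced RNA of MDA-MB-436 cells, a triple-negative breast cancer line, with and without SMARCAL1, a helicase that works on stalled replication forks. In total RNA (TruSeq) a control was set beside SMARCAL1 knockout clone 1, with 3 libraries of each. In PLATE-seq, where polyadenylated RNA is tagged and pooled from a plate, there were 6 groups of 2 libraries: a control, clones 1, 2 and 3 of the knockout, cells given a control siRNA, and cells given siRNA SMARCAL1. The 18 libraries thus form 8 groups. All cells were grown in DMEM with bovine growth serum. Each knockout is 1 clone per number, and the labels do not give the kind of control cell, the way the gene was disrupted, or the dose and time of the siRNA. The replicates are called biological by the labels, with no word on separate cultures, so the p-values measure the spread between these libraries. The source names of the 12 PLATE-seq samples number the line differently from sample to sample, but the titles, like the columns of counts, say MDA-MB-436, which was taken to hold throughout.

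Totals were 10257584 to 19270648 counts per TruSeq library and 807861 to 3068887 per PLATE-seq library, and among the latter those of clone 3 were the deepest. SMARCAL1 transcript was at 13.8 to 16.0 CPM (counts over the scaled library total) in the TruSeq control and 13.3 to 14.7 CPM in clone 1 (log2 change -0.07, SE 0.11, edgeR adjusted p = 0.791). In PLATE-seq it had 0 and 3 counts in the control, 3 and 6 in clone 1, 8 and 3 in clone 2 and 16 and 44 in clone 3 (mean log2 change of the clones 1.52, adjusted p = 0.727). A lower level of its transcript was thus not detected in the libraries labelled knockout, and these counts do not check the genotype. It had 7 and 8 counts in the siRNA control and 0 in both siRNA SMARCAL1 libraries (log2 change -6.14, SE 2.12, edgeR adjusted p = 0.573). The epithelial keratins KRT7, KRT8 and KRT18 and the mesenchymal genes VIM and CDH2 were present in every library. KRT19 and KRT14 were each at 0 in 10 of 12 PLATE-seq libraries and at most 0.254 and 0.829 CPM in TruSeq, and CDH1 was at most 0.763 CPM in TruSeq and 5.48 to 29.7 CPM in PLATE-seq. ESR1 and PGR were at most 0.964 and 0.402 CPM in TruSeq and at 0 in all 12 PLATE-seq libraries. ERBB2, the other receptor gene checked, was at 37.0 to 53.4 CPM in TruSeq and at most 9.05 CPM in PLATE-seq. EPCAM was at 1.91 to 4.18 CPM in TruSeq and at most 9.26 CPM in PLATE-seq. KRT5 was at most 0.396 CPM in TruSeq and at 9.21 to 46.1 CPM in PLATE-seq. Of 6 markers of other cells, PTPRC, CD3E, ALB and ACTA2 were at 0 in all 12 PLATE-seq libraries, LYZ was at 0 in 11 and PECAM1 at 0 in 7, with up to 4.12 CPM in the others. In TruSeq PTPRC and PECAM1 reached 2.67 and 2.76 CPM, and the other 4 at most 0.593 CPM. KRT7 stood at 4.42 to 17.4 CPM in TruSeq and 138 to 335 CPM in PLATE-seq, while KRT8 stood at 511 to 868 CPM and 8.69 to 31.9 CPM, so that levels were not compared between the assays. The TruSeq libraries fell into 2 sides by the number of symbols detected. Control replicates 1 and 2 and knockout replicate 1 had 36042 to 39068, and control replicate 3 and knockout replicates 2 and 3 had 28621 to 30653. Changes in TruSeq are therefore also given with the side as a factor, and within each side for FASN, FADS2, IDI1 and INSIG2 only.

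SREBPs bind a sterol regulatory element and act together with factor NF-Y, which binds CCAAT. RefSeq promoter windows (GRCh38.p14) were found for 26 of the 30 genes and searched on both strands over the 250 bases before the start. CCAAT lay in 19 of 26 members, or 73.1%, against 37.0% of 27305 genes. The classic element, searched as TCACNCCAC, lay in 1 of 26 members, SREBF2, and in 1.1% of all genes. CACGTG lay in 3 of 26, or 11.5%, against 7.7% of all genes. The following stretches are shown for the genes whose levels the results below return to, with the classic element and CCAAT in capitals. CACGTG is not marked, and matches or stretches that reach annotated exons of protein-coding genes are not shown. FDPS thus also has CCAAT at 122 and 51 bases before the start, and INSIG1 has CACGTG at 55. IDI1 has matches in another window as well. ATTGG is CCAAT read on the other strand, and a match is a run of letters, not a shown binding site.
SREBF2, chr22:41832957-41833018, plus strand: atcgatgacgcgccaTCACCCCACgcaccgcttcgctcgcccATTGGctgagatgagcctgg
INSIG1, chr7:155297693-155297727, plus strand: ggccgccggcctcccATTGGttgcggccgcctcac
IDI1, chr10:1049217-1049349, minus strand: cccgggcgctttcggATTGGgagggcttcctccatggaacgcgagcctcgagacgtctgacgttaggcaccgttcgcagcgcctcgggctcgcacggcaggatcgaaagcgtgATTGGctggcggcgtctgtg
FDPS, chr1:155308675-155308709, plus strand: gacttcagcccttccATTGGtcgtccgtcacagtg
FADS2, the member with the clearest difference between clones, held none of the 3 motifs in its window.

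In the TruSeq control all 30 genes were detected. Lengths are those of all annotated exons of a gene joined, not of the transcript expressed, so the order depends in part on the annotation. Per kilobase of exon, ACLY, which makes cytosolic acetyl-CoA from citrate, led with 59.9 ± 8.16 CPM per kb (SD, n = 3). SCD, which puts the first double bond into saturated fatty acids, followed with 57.7 ± 2.72 CPM per kb, a difference within the spread. SQLE, the epoxidase that commits squalene to sterols, came next with 48.99 ± 3.28 CPM per kb, and FDPS, which makes farnesyl diphosphate, followed with 39.2 ± 4.15 CPM per kb. FASN and FADS1 could not be told apart at 29.9 ± 5.26 and 29.6 ± 1.41 CPM per kb. SREBF2, SREBF1 and HMGCS1 were close together at 7.68, 7.43 and 7.38 CPM per kb. The lowest were MVK at 2.07 ± 0.296 and TM7SF2 at 1.43 ± 0.262 CPM per kb, of which TM7SF2 is a sterol reductase. Without the length, MVK at 13.4 CPM was above HSD17B7 at 11.1 and INSIG2 at 12.8 CPM.

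The TruSeq comparison asks how the genes differ between clone 1 and its control. None of the 30 members passed an adjusted p of 0.05 in edgeR, where 6.27% of all 17371 genes tested did. DESeq2 called 1 member, IDI1, and 925 of the 48775 genes to which it gave a p-value. It filters these genes again before the adjustment, so this share cannot be set beside that of edgeR. At an unadjusted p under 0.05 there were 3 of 30 members, CYP51A1 higher and IDI1 and FDFT1 lower, where 20.4% of all genes reached it. The differences were small: the median log2 change of the members was 0.02 (all genes 0.00), the range was -0.36 to 0.34, and the 95% interval lay inside a 2-fold change either way for 30 of 30 members and inside 1.5-fold for 26.

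**Figure D1:**
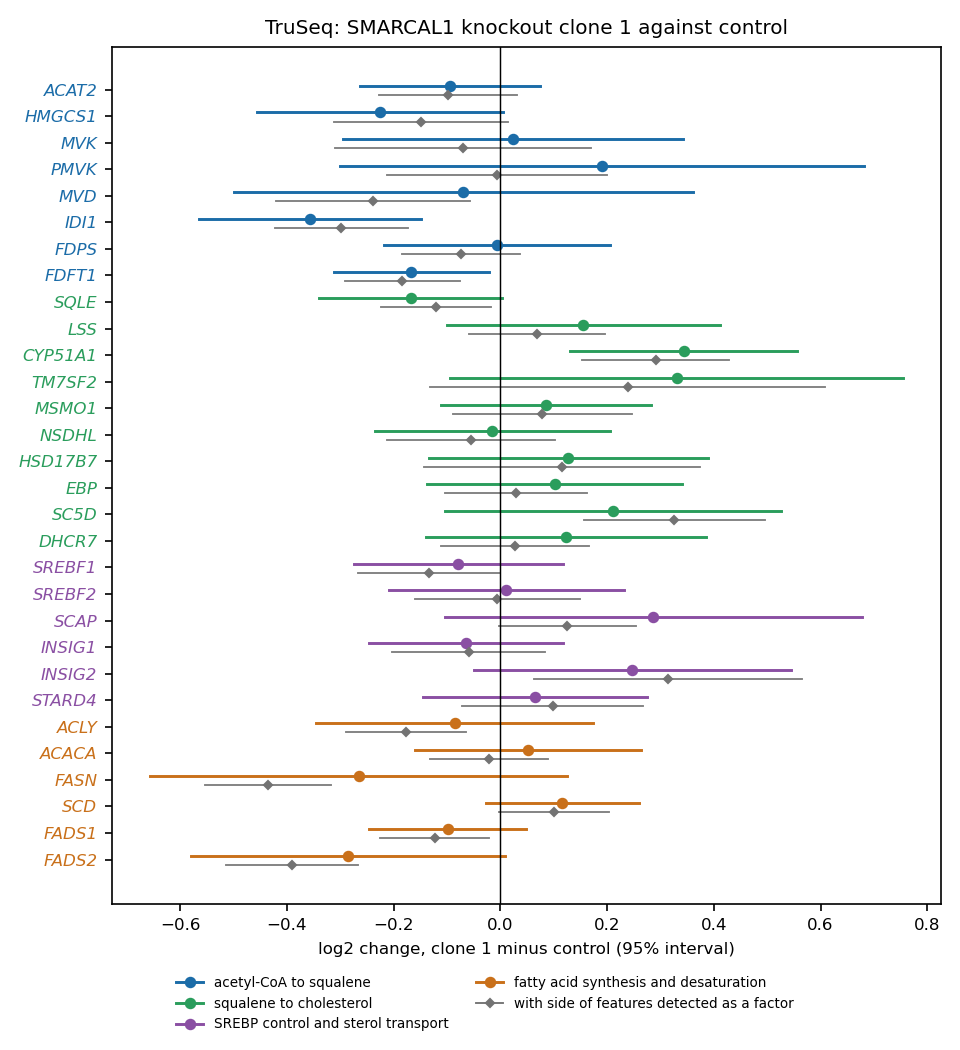
Log2 change of the 30 members between knockout clone 1 and control in TruSeq (n = 3 each), with 95% intervals, coloured by role. Grey diamonds are the same change with the side of features detected as a factor in the fit. All points lie between -0.44 and 0.34, and the grey intervals of FASN, FADS2 and IDI1 lie below 0.

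From acetyl-CoA to squalene, 6 of 8 genes had a negative change, with a median of -0.08 on the log2 scale. IDI1 (chromosome 10, 1039152 to 1049170, minus strand, GRCh38) encodes the isomerase that readies isoprene units for joining. It stood at 84.0, 86.7 and 77.2 CPM in the control and 71.5, 58.6 and 63.9 CPM in clone 1, so the groups did not overlap. The log2 change was -0.36 (SE 0.09, adjusted p = 0.0566). Leaving out single libraries put the edgeR adjusted p between 0.0226 (without knockout replicate 1) and 0.236. It was 0.0489 without control replicate 3. FDFT1, squalene synthase, stood at 138, 144 and 142 CPM against 119, 128 and 131 CPM, again without overlap (log2 change -0.17, SE 0.06, adjusted p = 0.180). HMGCS1, which makes HMG-CoA, was at 37.4, 36.1 and 30.6 CPM in the control and 31.5, 29.6 and 27.9 CPM in clone 1, where control replicate 3 fell among the clone 1 libraries. ACAT2, the thiolase before it, was level at 78.9, 79.6 and 79.0 CPM against 72.7, 69.7 and 80.4 CPM. The summed level of the 8 genes was 518 to 565 CPM in the control and 476 to 520 CPM in clone 1, which overlap.

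From squalene to cholesterol 8 of 10 changes were positive, with a median of 0.13, where 49.3% of all genes were positive. With the side of symbols detected as a factor 8 of 10 were positive here (median 0.07) and 0 of 8 from acetyl-CoA to squalene (median -0.12), and over all members 12 of 30 were positive in place of 16. The difference between the roles was not tested. CYP51A1 (chromosome 7, 92112151 to 92134803, minus strand), lanosterol demethylase, stood at 56.5, 49.3 and 56.9 CPM in the control and 61.6, 73.6 and 71.3 CPM in clone 1, without overlap. Its log2 change was 0.34 (SE 0.09, adjusted p = 0.0688). Without single libraries the edgeR adjusted p was between 0.0295 (without knockout replicate 1) and 0.302. This gene shares 79.35% of its exon bases with AC000120.2 on the same strand, whose counts were nearly equal to those of CYP51A1 in each of the 6 libraries, so these genes cannot be told apart. SQLE, at the head of the series, was at -0.17 and 196 to 224 CPM in the control against 178 to 198 CPM. DHCR7, the reductase of the last step, was at 42.2, 45.6 and 55.1 CPM against 46.0, 55.5 and 54.2 CPM. The groups overlapped, as they did for TM7SF2, which had a log2 change of 0.33 at only 3.98 to 7.20 CPM. Groups that did not overlap were found for 5 of 30 members (IDI1 and FDFT1 lower, and CYP51A1, INSIG2 and SCD higher), and for 26.2% of all genes.

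The regulators were close to level. SREBF1 stood at 54.9, 59.5 and 64.5 CPM in the control and 52.3, 57.4 and 59.8 CPM in clone 1. SREBF2 stood at 52.2, 62.3 and 59.7 CPM against 57.6, 53.8 and 64.5 CPM. INSIG1, itself a strong SREBP target, was at 50.9, 52.5 and 54.6 CPM against 54.1, 46.7 and 50.7 CPM. For these 3 genes the log2 changes were -0.08, 0.01 and -0.06, and the groups overlapped. SCAP followed the sides of the TruSeq libraries more than the groups, with 48.997, 47.0 and 68.7 CPM in the control and 53.0, 75.1 and 73.2 CPM in clone 1. INSIG2 was at 13.6, 14.1 and 10.7 CPM against 14.5, 15.6 and 15.3 CPM (log2 change 0.25). Its change was 0.53 within the side with fewer symbols and 0.05 within the other.

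Among the fatty acid genes, FASN (chromosome 17, 82078333 to 82098332, minus strand), fatty acid synthase, stood at 236, 269 and 333 CPM in the control and 174, 273 and 251 CPM in clone 1. FADS2, which desaturates polyunsaturated fatty acids, stood at 144, 175 and 199 CPM against 122, 146 and 158 CPM. The pooled log2 changes were -0.27 (SE 0.17, adjusted p = 0.436) and -0.29 (SE 0.13, adjusted p = 0.259). Within the side with more symbols the log2 difference was -0.54 for FASN and -0.40 for FADS2, and within the other side -0.35 and -0.39. IDI1 was at -0.26 and -0.34. Each side sets 1 library against 2, and the lone library has no replicate there, so these are given as values. A fit that assumes it to vary like the others called 2 members (6.39% of all genes) and 5 members (13.8% of all genes), which does not measure the spread of the lone group.

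With the side as a factor in the fit, 7 of 30 members passed: FASN fell by 0.44 on the log2 scale, FADS2 by 0.39, IDI1 by 0.30, FDFT1 by 0.18 and ACLY by 0.18, and SC5D and CYP51A1 rose by 0.33 and 0.29. In that fit 21.8% of all genes passed, a share close to that of the members. What sets the sides was not tested. ACLY, ACACA, SCD and FADS1 had pooled log2 changes of -0.09, 0.05, 0.12 and -0.10.

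Of a list of 63 other genes of sterol and fatty acid metabolism, 60 were tested in TruSeq and 3 passed, a share near the 6.27% of all genes. SCD5, a second stearoyl desaturase, was at 6.95, 6.91 and 7.63 CPM in the control and 15.6, 15.1 and 14.4 CPM in clone 1 and rose by 1.06 on the log2 scale (SE 0.11, adjusted p = 0.00158). LPCAT3, a phospholipid acyltransferase induced by sterol-sensing LXR, stood at 77.7, 89.3 and 80.0 CPM against 60.8, 59.5 and 60.1 CPM. It fell by 0.45 on the log2 scale (adjusted p = 0.0109). OSBP, an oxysterol-binding lipid carrier, stood at 72.9, 70.0 and 69.2 CPM against 55.5, 60.1 and 56.2 CPM and fell by 0.30 (adjusted p = 0.0372). The median over the list was 0.00. In PLATE-seq 47 of the 63 were tested and none passed in any comparison with a control.

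PLATE-seq, with fewer counts, tested 25 of the 30 members. HMGCS1, MVK, SREBF1 and INSIG2 were too low, and CYP51A1 had 0 counts in all 12 libraries. By counting error alone, a count of 0 allows 0.978 to 3.71 CPM. CYP51A1 shares 79.35% of its exon bases with AC000120.2 on the same strand. How reads from these bases were counted in PLATE-seq was not tested, so the 0 does not bound the level of its transcript. FADS1 was far above the rest, at 1159 to 1841 CPM. SREBF1 had 1 count in each clone 1 library, 0 and 6 in clone 2, 2 and 9 in clone 3 and 0 in both control libraries. INSIG2 had 1 and 2 counts in the control, 9 and 9 in clone 1, 0 and 0 in clone 2, 11 and 19 in clone 3, 10 and 11 in the siRNA control and 2 and 7 under siRNA SMARCAL1. DHCR7 was at 85.5 and 100.9 CPM in the control, 73.1 and 74.2 in clone 1, 37.0 and 121 in clone 2, 97.9 and 92.6 in clone 3, 48.7 and 63.3 in the siRNA control and 52.0 and 63.7 under siRNA SMARCAL1, and the clone 2 libraries alone span the values of all other groups. The 2 count tables hold unlike sets of symbols: GENCODE 29 has 57106 of the 57120 in TruSeq and 29226 of the 44267 in PLATE-seq. The cause of the contrast between the assays was not tested. No member passed the adjusted threshold of edgeR for the mean of the 3 clones against control (0.198% of all 8595 genes), clone 1 (0%), clone 2 (0.0349%), clone 3 (0.663%), siRNA SMARCAL1 against its control (0%) or siRNA control against control (0.0116%). At an unadjusted p under 0.05 these comparisons held 5 of 25 members (10.1% of all genes), 3 (8.19%), 2 (9.66%), 4 (11.9%), 2 (6.33%) and 0 (7.78%). DESeq2 called 1 member, FADS2 in clone 3 (120 of the 17193 genes with a p-value, before its own filter), and 0 in the others. The 95% intervals were wide, and lay inside a 2-fold change for 5 to 8 of the 25 members, depending on the comparison. The 3 clones share 1 pair of control libraries, so their changes are not independent.

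**Figure D2:**
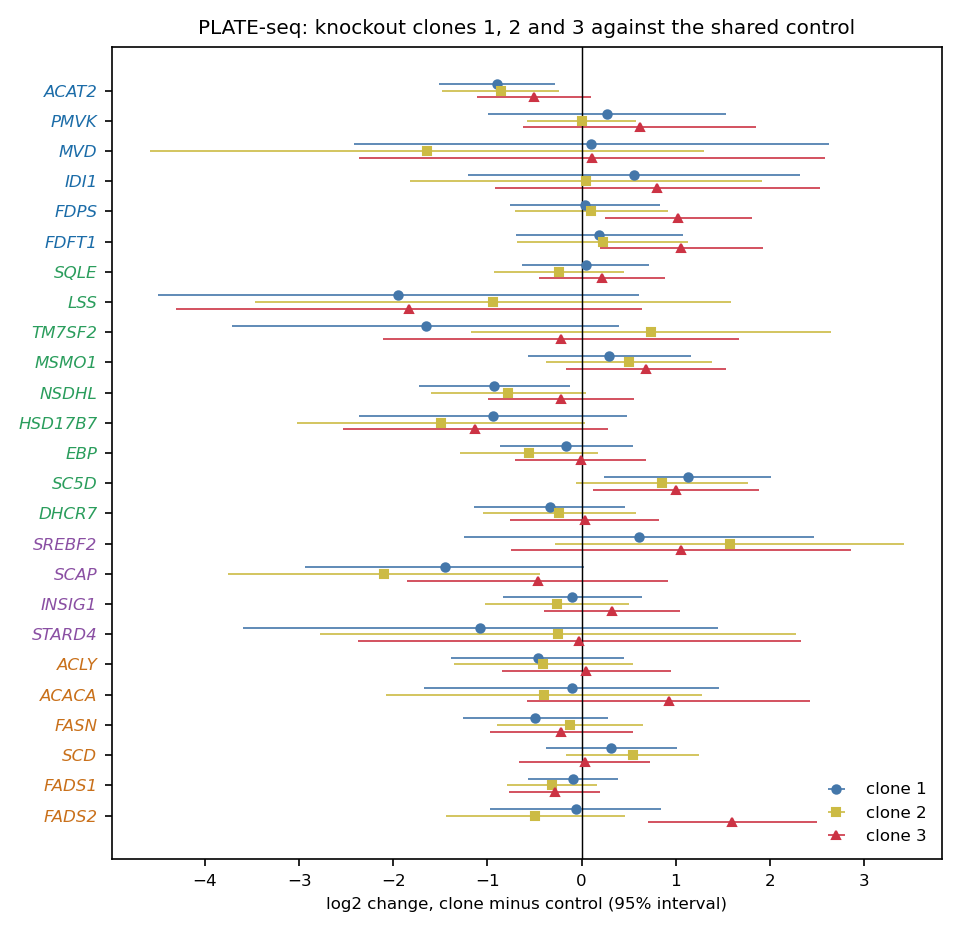
Log2 change of the 25 members tested in PLATE-seq for clones 1, 2 and 3 against the shared control (n = 2 each), with 95% intervals and gene names coloured by role as in the TruSeq plot. ACAT2 lies below 0 and SC5D above 0 in all 3 clones, and FADS2 of clone 3 stands apart at 1.60.

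The members at an unadjusted p under 0.05 for the mean of the clones were ACAT2, NSDHL, HSD17B7 and SCAP, which were lower, and SC5D, which was higher. ACAT2 stood at 179 and 154 CPM in the control, 99.0 and 79.6 in clone 1, 79.2 and 104 in clone 2, and 134 and 100.4 in clone 3. All 6 clone libraries were below both control libraries. Such separations of PLATE-seq libraries, here and for the genes below, were not counted over all genes, so they have no share to be set against. The mean log2 change was -0.75 (SE 0.23, adjusted p = 0.215). The siRNA control was at 148 and 135 CPM and siRNA SMARCAL1 at 121 and 108 CPM, and against the siRNA control the mean of the clones was -0.52 (adjusted p = 0.704). ACAT2 shares exon bases with SOD2 and TCP1 on the opposite strand, and the strand setting of the counting is not given in the sources used here.

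SC5D, a sterol desaturase late in the chain, stood at 17.5 and 22.2 CPM in the control. It was at 38.9 and 47.7 in clone 1, 27.8 and 43.7 in clone 2, and 34.8 and 44.5 in clone 3, so that all clone libraries were above the control (mean log2 change 0.99, SE 0.38, adjusted p = 0.369). The siRNA control was at 39.1 and 34.8 CPM and siRNA SMARCAL1 at 41.2 and 35.3 CPM, in the range of the clones. Measured against the siRNA control, the clone mean was 0.10 (adjusted p = 0.975), so the difference rests on which control is used.

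SCAP, the escort of the SREBP precursors, was at 16.4 and 14.8 CPM in the control, 5.89 and 5.41 in clone 1, 4.12 and 3.05 in clone 2, and 7.94 and 14.4 in clone 3. The siRNA control was at 16.5 and 13.2 CPM and siRNA SMARCAL1 at 9.45 and 10.8 CPM. The mean of the clones was -1.34 (SE 0.57, adjusted p = 0.434) against the control and -1.27 (adjusted p = 0.679) against the siRNA control. Each of these values comes from 3 to 48 counts, and in TruSeq SCAP of clone 1 had the opposite sign (0.29, adjusted p = 0.330). NSDHL, a sterol dehydrogenase, was at 93.2 and 46.8 CPM in the control, 35.4 and 38.4 in clone 1, 43.2 and 38.6 in clone 2, 67.5 and 53.5 in clone 3, 73.9 and 62.6 in the siRNA control and 66.1 and 38.2 under siRNA SMARCAL1. Control replicate 1 stood above all other libraries, and the mean change of the clones, -0.64, was -0.05 without it. HSD17B7, a sterol ketoreductase, was at 31.8 and 23.4 CPM in the control, 14.1 and 14.6 in clone 1, 13.4 and 6.09 in clone 2, 19.0 and 6.61 in clone 3, 18.3 and 6.26 in the siRNA control and 3.37 and 13.7 under siRNA SMARCAL1. Its mean change was -1.19 against the control and 0.00 against the siRNA control.

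The clones were not alike. FADS2 (chromosome 11, 61792980 to 61867354, plus strand) stood at 196 and 175 CPM in clone 3. It was at 91.0 and 30.8 CPM in the control, 49.5 and 67.7 in clone 1, 63.8 and 23.3 in clone 2, 76.5 and 80.7 in the siRNA control and 112 and 61.8 under siRNA SMARCAL1. Both clone 3 libraries were above the other 10, and the share of all genes separated in this way was not counted. An F test among the 3 clones gave an adjusted p of 0.0182, which 1 of 25 members and 0.71% of all genes passed. FADS2 in clone 3 was higher than in clone 2 by 2.09 (SE 0.44, adjusted p = 0.0235), where 1 of 25 members and 0.756% of all genes passed. It was higher than in clone 1 by 1.66 (SE 0.42, adjusted p = 0.0774), where 0 members and 0.465% of all genes passed, and higher than in the control by 1.60 (SE 0.43, adjusted p = 0.100). The 2 control libraries differed widely, and the last difference was 2.61 without control replicate 1 and 1.04 without control replicate 2. The F test gave 0.0507 without clone 3 replicate 1 and 0.109 without replicate 2. FADS1 lies within the span of FADS2 on the opposite strand and shares 490 exon bases with it, and without a stated strand setting reads from these bases cannot be told apart. For FADS1, clone 3 was at 1691 and 1159 CPM and clone 1 at 1474 and 1786 CPM. FADS3, the next gene of the family, was at 71.4 and 34.6 CPM in clone 3 and 67.8 and 67.7 CPM in clone 1. Clone 1 itself had a FADS2 log2 change of -0.06 in PLATE-seq and -0.29 in TruSeq.

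**Figure D3:**
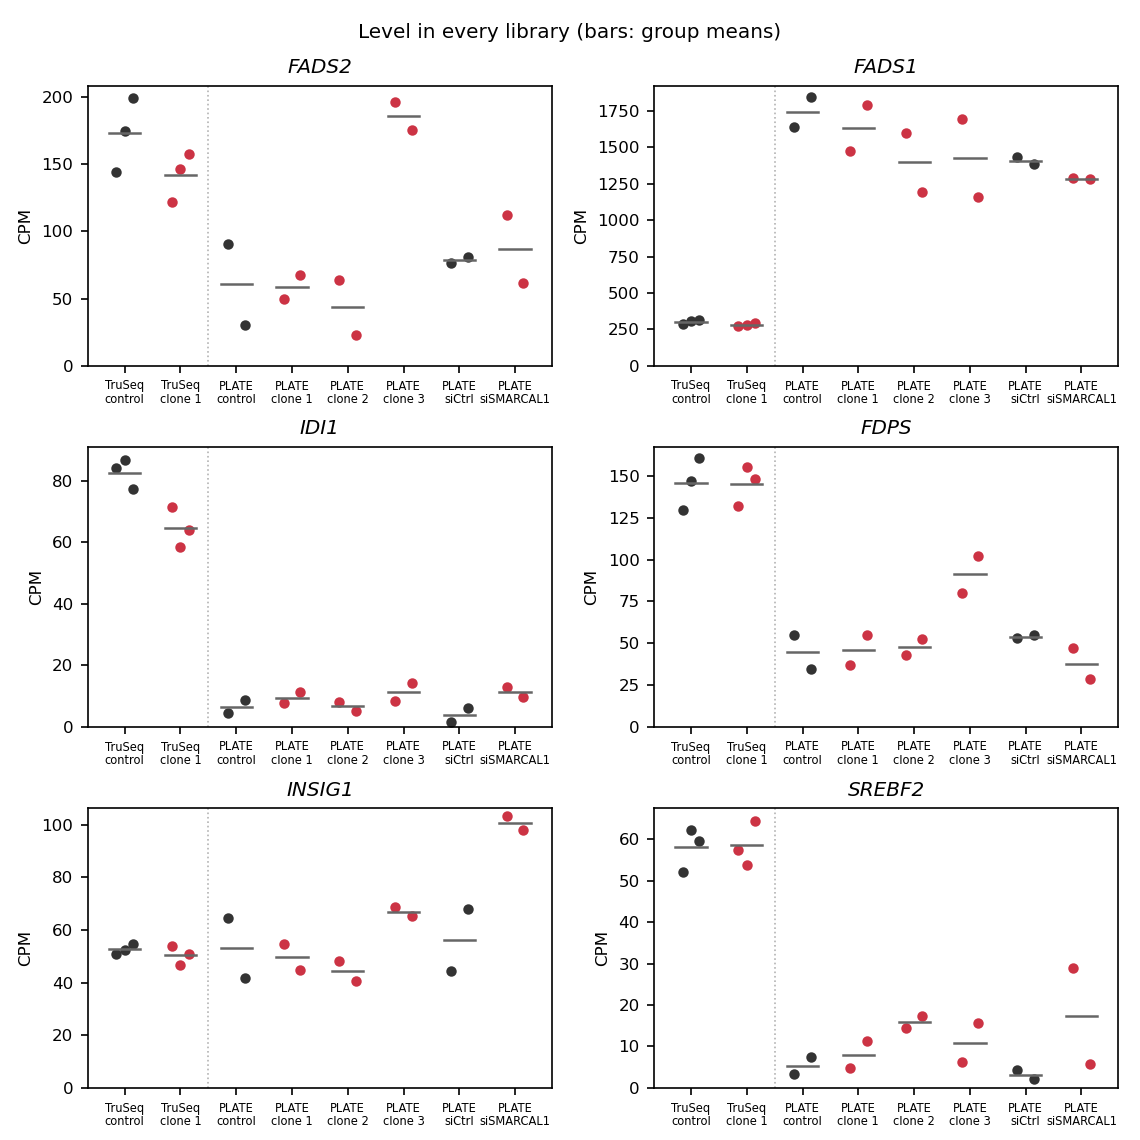
CPM of FADS2, FADS1, IDI1, FDPS, INSIG1 and SREBF2 in every library (points) with group means (bars), TruSeq to the left of the dotted line and PLATE-seq to the right, controls in black. FADS2 is highest in both clone 3 libraries among the PLATE-seq groups, and INSIG1 in both siRNA SMARCAL1 libraries.

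For the other members the differences of clone 3 from the other clones did not pass the threshold, and their signs were mostly positive. Of the 25 members, 21 had a positive difference from clone 1 (84% against 51.4% of all genes, median 0.39 against 0.02), and 20 had one from clone 2 (80% against 51.2%, median 0.45 against 0.02). These 2 comparisons share the clone 3 libraries. Leaving out single clone libraries left 18 to 21 of 26 members positive in them. Against the control, 15 of 25 were positive in clone 3 (60% against 51.2% of all genes), with a median of 0.05 (all genes 0.02). Clones 1 and 2 had 10 and 8 of 25 positive (40% and 32%, against 50.5% of all genes), with medians of -0.10 and -0.25. Against the siRNA control, 21 of 25 were positive in clone 3 (4391 of all 8595 genes), with a median of 0.43. In clones 1 and 2 there were 12 and 9, so these counts rest on which control is used. FDPS stood at 79.8 and 102 CPM in clone 3, against 54.8 and 34.5 in the control, 37.1 and 54.7 in clone 1, 43.2 and 52.8 in clone 2, 53.0 and 55.0 in the siRNA control and 47.2 and 28.4 under siRNA SMARCAL1, with both clone 3 libraries above the other 10. The log2 difference was 1.03 from the control (SE 0.38, adjusted p = 0.251) and 0.99 from clone 1 (adjusted p = 0.292). FDFT1, the next enzyme, stood at 82.9 and 115 CPM in clone 3, above all other libraries, against 23.0 and 72.6 in the control, 43.0 and 65.0 in clone 1, 62.8 and 47.7 in clone 2, 66.9 and 45.2 in the siRNA control and 66.1 and 52.9 under siRNA SMARCAL1 (1.06 from the control, SE 0.42, adjusted p = 0.303). That difference was 0.46 without control replicate 1 and 2.11 without control replicate 2. For FDPS and FDFT1 too, the share of all genes with both clone 3 libraries above the rest was not counted.

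HMGCS1 had 11 and 17 counts in clone 3, 4 and 5 in clone 2, 1 and 0 in the control and in clone 1, 0 and 0 in the siRNA control and 1 and 0 under siRNA SMARCAL1. Scaled by the totals of the libraries, this put clone 3 at 8.68 times the control (95% exact binomial interval 1.43 to 355) and clone 2 at 8.12 times (1.13 to 356), with counting error only. Both ratios rest on 1 control count and were computed only for the groups with the most counts, so they are not a test. With no filter on low counts, the edgeR F test among clones gave HMGCS1 an unadjusted p of 0.156. The summed level of the genes from acetyl-CoA to squalene was 339 to 380 CPM in clone 3, 216 to 237 in clone 1, 222 to 232 in clone 2 and 292 to 293 in the control. It was 266 to 289 CPM in the siRNA control and 217 to 287 CPM under siRNA SMARCAL1. Both clone 3 sums were above those of the other 10 libraries. The sums of clones 1 and 2 overlapped each other and those of siRNA SMARCAL1, and lay below the control. The lower sums rest on ACAT2, whose mean was 166 CPM in the control, 89.3 in clone 1 and 91.4 in clone 2. The mean sums of these groups were 292, 226 and 227 CPM. Clone 3 also had the deepest libraries, and the part of depth in these values was not tested. The other list of pathway genes had a median of 0.23 for clone 3 against clone 1 and 0.07 against clone 2.

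**Figure D4:**
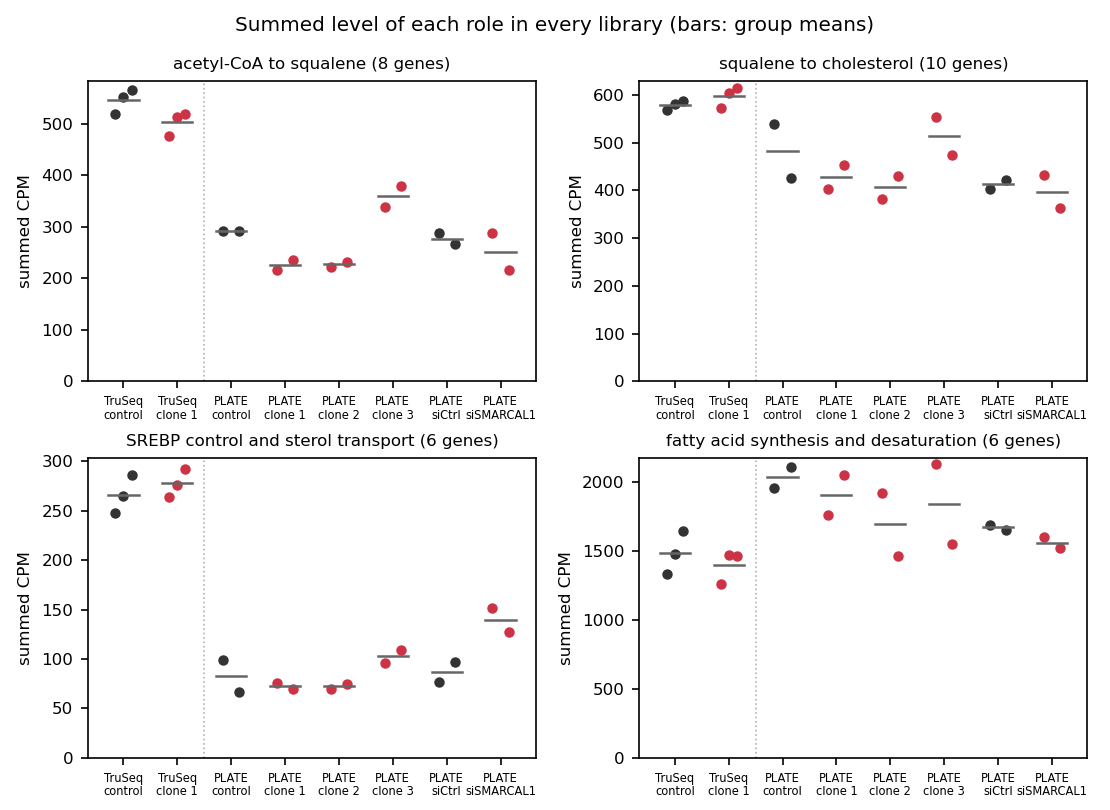
Summed CPM of each of the 4 roles in every library (points) with group means (bars), TruSeq to the left of the dotted line, controls in black. From acetyl-CoA to squalene, clone 3 (339 to 380 CPM) lies above the PLATE-seq control and clones 1 and 2, and among the PLATE-seq groups the regulators are highest under siRNA SMARCAL1 (127 to 152 CPM).

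The siRNA comparison sets cells given siRNA SMARCAL1 beside cells given a control siRNA. The members at an unadjusted p under 0.05 were 2 regulators, INSIG1 and SREBF2. INSIG1 (chromosome 7, 155297776 to 155310235, plus strand) stood at 103 and 98.1 CPM under siRNA SMARCAL1 and 44.3 and 68.2 CPM in the siRNA control. These 2 libraries were above the other 10, which reached 68.8 CPM, and the share of all genes separated in this way was not counted. The log2 change was 0.83 (SE 0.35, unadjusted p = 0.0240, edgeR adjusted p = 0.686). SREBF2 (chromosome 22, 41833079 to 41907308, plus strand) stood at 29.02 and 5.88 CPM against 4.35 and 2.09 CPM, a log2 change of 2.47 (SE 0.90, adjusted p = 0.611). It rests largely on siRNA SMARCAL1 replicate 1, without which it was 0.88. In the clones SREBF2 was at 4.71 to 17.3 CPM and in their control at 3.29 and 7.38 CPM. SCAP, another regulator, was at -0.55 (SE 0.69, unadjusted p = 0.431). The summed level of the 6 genes of SREBP control and sterol transport, most of it INSIG1, was 127 to 152 CPM under siRNA SMARCAL1 and 76.5 to 96.7 CPM in the siRNA control.

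For the enzymes the siRNA values went both ways. Over all 25 members the median siRNA change was -0.01 (all genes -0.02), with 12 positive and 13 negative. IDI1 was at 12.8 and 9.81 CPM against 1.74 and 6.26 CPM (log2 change 1.45, SE 0.86, adjusted p = 0.840), while FDPS was at -0.50, SC5D at 0.05 and FADS2 at 0.15. SREBF1 had at most 1 count in each siRNA library, and INSIG2 was at 1.35 and 6.86 CPM against 8.69 and 7.65 CPM. The effect of the knockouts and that of the siRNA were compared directly by their difference, in which 0 of 25 members and 0% of all genes passed the adjusted threshold, and 0 of 25 members had an unadjusted p under 0.05 (7.76% of all genes). For INSIG1 that difference was -0.84 (SE 0.45, adjusted p = 0.679). The siRNA control itself differed from the control of the clones by a median of -0.23 over the members (all genes 0.01), with 17 of 25 negative and 0 at an unadjusted p under 0.05.

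Clone 1 was measured in both assays, each with its own control. Of the 25 members tested in both, 12 had the same sign, 5 positive and 7 negative, where 59.9% of the 8177 genes tested in both had. IDI1, the member with the largest decrease in TruSeq, had a log2 change of 0.56 in PLATE-seq (SE 0.85, 2 to 47 counts per library over all groups). SC5D was at 0.21 in TruSeq and 1.13 in PLATE-seq, ACAT2 at -0.09 and -0.90, and FASN at -0.27 and -0.49. The 95% interval in PLATE-seq held the TruSeq value for 21 of 25 members, and did not for ACAT2, NSDHL, SC5D and SCAP.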

How the data were processed

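The deposited values are raw counts per gene symbol, which the authors made; the submitters' processing notes name STAR, HTSeq and build hg38. The versions, the annotation release and the strand setting are not given in the sources used here. The 92 spike-in entries of PLATE-seq were left out.

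Each assay was fitted on its own over all genes kept by filterByExpr, 17371 in TruSeq and 8595 in PLATE-seq, where all 12 libraries shared 1 fit. The main test was the quasi-likelihood F test of edgeR 4.0.16 (R 4.3.3) with TMM scaling and group as the only term. It was two-sided, with Benjamini-Hochberg adjustment over all genes and a threshold of 0.05. DESeq2 1.42.0 and other settings were alternatives. CPM use TMM library sizes. Standard errors come from the log2 change and its F value. The members and lists were chosen with earlier results of these data known. Values per library are given for members at an unadjusted p under 0.05 in a main comparison, for the start and end of the enzyme series, and for SREBF1, SREBF2, SCAP, INSIG1 and INSIG2. Comparisons among clones were added after seeing the data. Positions and exon overlaps are from GENCODE 29 (GRCh38) by symbol, which held all 30 members. It lacks many symbols of the PLATE-seq table, so these overlaps need not be those of the annotation used to count PLATE-seq. Replicates differed by more than counting noise (chi-square per degree of freedom 5.66 to 33.9). Intervals of log2 changes come from the edgeR fit and include the spread between libraries. The binomial intervals and floors (3 counts) cover counting error only.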

Additional observations from a re-analysis of the deposited data

Results flagged for a closer look

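FADS2, a fatty acid desaturase, differed among the 3 knockout clones in PLATE-seq by the F test across clones (edgeR adjusted p = 0.0182). Clone 3 was higher than clone 1 by 1.66 and higher than clone 2 by 2.09 on the log2 scale, in 2 of 2 libraries. The adjusted p was 0.0507 without clone 3 replicate 1 and 0.109 without clone 3 replicate 2, and 0.00351 to 0.0449 without single libraries of the other clones. Clone 3 also had the deepest libraries, and the part of depth in this difference was not tested.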

How the results depend on the processing

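In TruSeq the number of members past the threshold, 0 in the report, was 1 with DESeq2, 1 with no filter on low counts, 7 with the side of symbols detected as a factor, 2 within the side with more symbols and 5 within that with fewer, and 0 to 2 without single libraries. The count over all genes was 1089, and it was 3793 with the side as a factor, 2517 within the side with fewer symbols, and 199 to 1145 without single libraries. Same-numbered TruSeq libraries of the 2 groups had correlated deviations of -0.25 to 0.60, and not every library matched its own number best, so the numbers were not taken to pair them. With the replicate block 4 members (CYP51A1, FADS2, FASN and IDI1) and 2387 genes passed. DESeq2 called 925 of all genes in TruSeq, and edgeR with no filter on low counts called 1285.

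In PLATE-seq the number of members was 0 in every comparison with a control under the alternatives run, except 1 for clone 3 with DESeq2 and 1 with no filter, FADS2 both times, and it was 0 without single libraries (0 to 1 for the F test among clones and for clone 3 against clone 2). Over all genes, DESeq2 and no filter gave 46 and 83 for the clone mean (17 in edgeR), 20 and 36 for clone 1 (0), 33 and 61 for clone 2 (3), 120 and 156 for clone 3 (57), 13 and 22 for siRNA SMARCAL1 (0), 3 and 35 for the siRNA control (1), 16 and 44 for knockout against siRNA effects (0), and 147 and 230 among clones (61). With only the compared groups in the fit there were 1 for clone 2, 3 for clone 3, 1 for siRNA SMARCAL1, 0 for the siRNA control and 39 among clones. Measured against the siRNA control there were 7, 13 and 24 for clones 1, 2 and 3. With the replicate block 2 genes passed for knockout against siRNA effects. Without single libraries the counts were 5 to 52 for the clone mean, 0 to 3, 3 to 12 and 7 to 131 for clones 1, 2 and 3, 0 to 2 for siRNA SMARCAL1, 0 to 4 for the siRNA control, 17 to 141 among clones, and 1 to 4, 18 to 95 and 10 to 178 for clone 2 against 1, clone 3 against 1 and clone 3 against 2. HSD17B7 reversed for the clone mean with the siRNA control, from -1.19 to 0.00275. Apart from the settings that leave out samples or genes, the cause of these shifts was not tested. Low PLATE-seq counts limit IDI1, SREBF2, SCAP and HMGCS1 most.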
